A study of Mus musculus with 9 samples.

Results

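The 6482 regions described here are the stretches of the mouse genome where the interval lists of both KDM6A libraries from untreated embryonic stem cells overlapped by at least 1 bp. They were formed by joining overlapping intervals of the 2 lists, and they took in 7406 of the 44838 intervals of control library 1 (16.5%) and 6988 of the 21228 intervals of control library 2 (32.9%). For every interval the deposited lists give the reads of the immunoprecipitation and the reads of a background library that the files do not name. The measure throughout is the centred ratio, log2((KDM6A reads + 1)/(background reads + 1)) minus the median of that value over all intervals of the same list, so that 0 is the middle of a library's own list and not the level of the genome.

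The assay was ChIP-seq: chromatin was fixed and broken up, fragments were captured with an antibody, and their DNA was sequenced. The series holds 9 samples, of which the 2 control KDM6A libraries are the subject, with 2 control inputs. The cells were of the Sv129 mouse embryonic stem cell line, with the genotype entry WT, grown on gelatin with serum and leukemia inhibitory factor. The treatment field reads neurodevelopment for all samples, and the text of the MTX treatment stands on every sample, so the control status was read from the titles and the genotype entry. The antibody of both libraries was anti-KDM6A, from 1 lot. A further library, pulled down with IgG from cells of the same line given 0.12 µM MTX for 24 h and entered as folate deficiency, was used only for the positions of its 22843 intervals. No IgG library of untreated cells was used, so an overlap with IgG sets a control library beside treated cells. The labels do not say whether the 2 control libraries came from separate cultures, so the spread between them may be technical.

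KDM6A, also called UTX, removes methyl groups from lysine 27 of histone H3, a mark that Polycomb repressive complex 2 writes on silent genes. It is a subunit of the KMT2C and KMT2D complexes, which methylate lysine 4 of histone H3 at enhancers. The gene lies on the X chromosome and has a homolog on Y, Uty. In embryonic stem cells KDM6A is known for its place at enhancers and promoters of developmental genes that are activated as the cells differentiate. The antibody measures only where the protein was crosslinked, and the lists hold no measure of expression, so the identity of the cells could not be checked as expression. Of 7 stem cell markers, Klf4, Nanog, Sox2, Tfcp2l1 and Zfp42 had an interval at a gene end in library 1, and 1, Tfcp2l1, in library 2. None of 6 fibroblast markers had one in either library. Over all protein-coding genes the shares were 20.2% and 7.73%, so counts over lists this short say little about the cells.

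Promoters lay in both lists at 132 of 21263 entries of the RefSeq promoter table (0.621%), and 6 of them are given as examples. Each sequence is the 250 bases upstream of a gene's start, from RefSeq on GRCm38.p6, written 5′ to 3′ on the strand of the gene, with CG dinucleotides in capitals because the CpG content of the covered promoters is described further on. They were chosen by their ratios among genes with a single table entry whose 250 bases lay wholly within an interval of each library. Predicted symbols and the genes of a chromosome kept out of the sequence examples were removed before the ranking. Among the genes left, the first 3 had the highest ratio in the library where it was lower. The last 3 had the lowest ratios among the CpG-rich promoters left.
Sult3a1: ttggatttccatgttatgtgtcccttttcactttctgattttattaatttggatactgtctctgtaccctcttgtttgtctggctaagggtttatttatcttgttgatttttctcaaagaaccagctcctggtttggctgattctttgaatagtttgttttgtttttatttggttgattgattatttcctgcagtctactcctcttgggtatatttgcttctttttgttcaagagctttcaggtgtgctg
Olfr1313: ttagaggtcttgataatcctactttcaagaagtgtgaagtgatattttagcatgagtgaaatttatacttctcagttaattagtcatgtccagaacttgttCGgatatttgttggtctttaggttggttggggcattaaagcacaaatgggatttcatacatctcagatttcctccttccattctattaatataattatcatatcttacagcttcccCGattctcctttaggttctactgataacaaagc
Olfr771: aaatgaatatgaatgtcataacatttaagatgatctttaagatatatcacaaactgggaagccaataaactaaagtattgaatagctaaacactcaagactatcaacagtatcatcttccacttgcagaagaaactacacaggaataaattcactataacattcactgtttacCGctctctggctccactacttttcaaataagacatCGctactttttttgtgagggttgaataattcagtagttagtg
Ranbp17: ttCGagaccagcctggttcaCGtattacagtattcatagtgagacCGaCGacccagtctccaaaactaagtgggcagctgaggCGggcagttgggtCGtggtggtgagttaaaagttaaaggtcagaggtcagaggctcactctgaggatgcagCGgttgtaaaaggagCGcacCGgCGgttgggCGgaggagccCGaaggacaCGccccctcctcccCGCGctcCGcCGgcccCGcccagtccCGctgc
Glp1r: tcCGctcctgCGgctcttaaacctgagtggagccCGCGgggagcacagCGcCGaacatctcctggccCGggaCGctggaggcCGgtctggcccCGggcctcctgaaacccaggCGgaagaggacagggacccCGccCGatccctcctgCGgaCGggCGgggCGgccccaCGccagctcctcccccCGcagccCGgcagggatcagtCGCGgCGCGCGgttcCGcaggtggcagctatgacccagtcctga
Ppia: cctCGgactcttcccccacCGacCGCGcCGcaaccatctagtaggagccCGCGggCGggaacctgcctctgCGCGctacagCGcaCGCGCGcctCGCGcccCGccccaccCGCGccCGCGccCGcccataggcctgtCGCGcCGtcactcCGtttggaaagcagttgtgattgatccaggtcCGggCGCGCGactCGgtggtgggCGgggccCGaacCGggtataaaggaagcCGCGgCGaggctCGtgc

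The last 3 sequences hold many CG because they were picked among CpG-rich promoters, while the first 3 were picked without regard to CpG content. The sequence of Sult3a1, a sulfotransferase gene, lies at chr10:33857472-33857721 on the plus strand and holds 0 CG. Its intervals held 77 KDM6A against 31 background reads in library 1 and 231 against 145 in library 2, for centred ratios of 1.00 and 0.26. Those of the odorant receptor genes Olfr1313 (chr2:112072584-112072833, minus strand) and Olfr771 (chr10:129160983-129161232, minus strand) hold 2 CG each. Olfr1313 had centred ratios of 0.22 and 0.26 and Olfr771 had 0.20 and 0.24, so all 3 were above the file median in both libraries. The 3 CpG-rich promoters were below the file median in both libraries. Ranbp17, a nuclear transport receptor gene, has 19 CG at chr11:33513754-33514003 on the minus strand, with 110 against 192 reads in library 1 and 127 against 147 in library 2 (centred ratios -1.09 and -0.62). Glp1r, the receptor of glucagon-like peptide 1, has 26 CG at chr17:30901617-30901866 on the plus strand, with ratios of -0.83 and -0.60. Ppia, which encodes cyclophilin A, has 38 CG at chr11:6415617-6415866 on the plus strand, with ratios of -0.59 and -0.60. IgG intervals overlapped at Olfr771 and at all 3 CpG-rich promoters, and not at Sult3a1 or Olfr1313.

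The 2 lists differ in size and depth. Library 1 covered 138 Mb with 4041853 KDM6A and 3554275 background reads in its intervals, and library 2 covered 90.4 Mb with 3348266 and 2669154. The median interval held 79 KDM6A and 66 background reads in library 1 and 129 and 98 in library 2. Reads outside intervals are not in the lists, and the total depth is therefore unknown. The file median of the log2 ratio was 0.29 in library 1 and 0.41 in library 2.

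Most shared regions paired a single interval of each library, but the 2 intervals matched loosely. A single pair made up 5514 regions (85.1%), and the other 968 joined up to 15 intervals. Regions had a median width of 5800 bp, with quartiles of 4600 and 7800 bp and a maximum of 91000 bp, while the stretch common to both libraries had a median of only 2200 bp. In the single pairs the midpoints lay a median of 1400 bp apart, the wider interval was a median of 1.53 times the width of the narrower, and 38.0% of the narrower intervals lay wholly inside the wider. Intervals started and ended on a grid of 200 bp, and 49 pairs had the same coordinates. None of these 49 had the same background count, so the 2 lists counted different background reads. In all, 17.8 Mb was common to both lists, which is 12.9% of the bases of library 1, 19.7% of those of library 2 and 8.45% of the bases covered by either.

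Shared intervals were wider than the rest of their list and had lower KDM6A ratios. In library 1 the median width was 3200 bp for shared and 2800 bp for unshared intervals, and in library 2 it was 4200 and 3800 bp. A wider interval can more easily meet the other list by 1 bp, so the difference in width is partly set by construction. The median centred ratio was -0.18 for shared and 0.04 for unshared intervals of library 1, and -0.10 and 0.05 in library 2. These are descriptions of 2 lists, without a test. In the authors' own calls (a deposited adjusted p under 0.05 and a deposited fold above 1) the order was the same: 76.4% of shared and 86.6% of unshared intervals passed in library 1, where 84.9% of all intervals did, and 71.3% and 82.1% in library 2, where 78.5% did. Of the 6482 regions, 3996 (61.6%) held a passing interval of each library, 1165 of library 1 alone, 764 of library 2 alone and 557 of neither. IgG intervals overlapped 41.5% of shared and 13.8% of unshared intervals in library 1, and 42.8% and 17.1% in library 2.

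Background depth moved with the overlap between libraries and with the ratio. When the intervals of each library were sorted into 10 equal groups by background reads per kb, the share that overlapped the other library went up from 4.82% in the lowest group to 34.7% in the highest in library 1, and from 17.5% to 61.2% in library 2. Over the same groups the median centred ratio went down from 0.83 to -0.53 and from 0.63 to -0.44. Background reads are the denominator of the ratio, so this order is partly set by construction. Within a group, shared and unshared intervals had nearly the same ratio: the difference of their medians ran from -0.03 to 0.04 in library 1 and from -0.02 to 0.03 in library 2. The share of intervals that overlapped IgG also went up over the groups, from 7.83% to 39.5% in library 1 and from 12.2% to 54.8% in library 2.

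**Figure D1:**
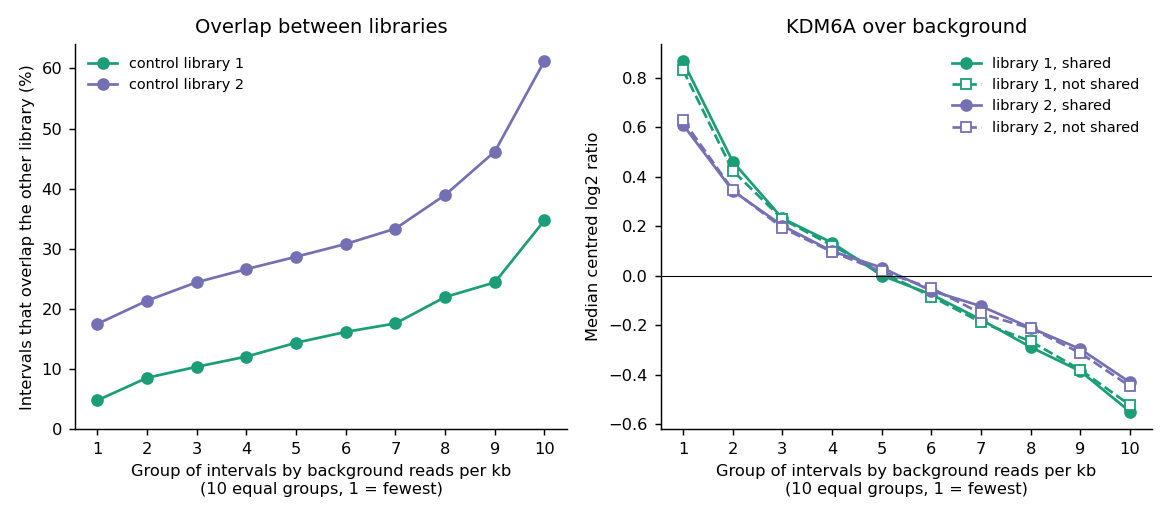
Left, the percentage of each control library's intervals that overlap the other library, and right, the median centred log2 ratio of shared (filled) and unshared (open) intervals, for 10 equal groups of intervals by background reads per kb (1 = fewest). The overlap goes from 4.82% to 34.7% in library 1 and from 17.5% to 61.2% in library 2, while filled and open points of a library lie within 0.04 of each other.

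Overlap and ratio also moved with width, though the overlap rule itself favours wide intervals. From the narrowest to the widest of 5 equal groups of intervals, the shared share went from 13.2% to 26.2% in library 1 and from 27.2% to 50.1% in library 2, with most of the step in the widest group. The ratio went down with width as well, from a median of 0.41 in the narrowest group to -0.23 in the widest in library 1, and from 0.25 to -0.17 in library 2. The intervals were called from the same KDM6A reads, so this order may be partly set by the calling, which was not tested. Background reads per kb stayed between 22.9 and 24.0 over the groups in library 1 and between 24.7 and 26.9 in library 2. At the edge of the overlap rule, the 284 intervals of library 1 and 261 of library 2 that overlapped by a single 200 bp window had median ratios of -0.06 and -0.01. Those with a gap of 0 to 200 bp to the other list, 445 and 398 intervals, had -0.04 and 0.04.

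The 2 libraries agreed weakly on how a region ranked. Over the 6482 regions Pearson's r of the centred ratios was 0.29 and Spearman's rho 0.31, with regions as points that share the 2 libraries and their depths. The ratio was on the same side of the file median in both libraries in 4092 regions (63.1%), below it in 2941 and above it in 1151. The SD of the difference between the libraries was 0.47 on the log2 scale, where counting error of the reads alone would give 0.29.

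Agreement was closer at deep regions, where the ratios were low in both libraries. In the 1162 regions with fewer than 50 background reads in at least 1 library, r was -0.20 and the SD of the difference 0.72, against 0.37 from counting error. In the 3165 regions whose lower count was from 50 to below 100 reads r was 0.10, in the 1591 from 100 to below 200 it was 0.27, and in the 434 from 200 to below 500 it was 0.43. In the 130 regions with 500 or more r was 0.86, or 0.66 over the 128 that are not mitochondrial, and the SD of the difference was 0.16. Those 130 regions held 24.5% of the KDM6A reads of all shared regions in either library, and their median centred ratios were -0.54 and -0.36. The share of regions below the file median in both libraries went up over the 5 classes, from 4.04% to 37.3%, 75.2%, 89.6% and 99.2%. The share above it in both went down, from 47.8% to 17.0%, 3.27%, 1.15% and 0%. The classes use the denominator of the ratio, which ties low depth to high ratios. A region enters the shallowest class when only 1 library has few background reads, so the negative r there may be partly set by construction. The share of regions with an IgG interval was 28.3% in the shallowest class and 99.2% in the deepest.

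**Figure D2:**
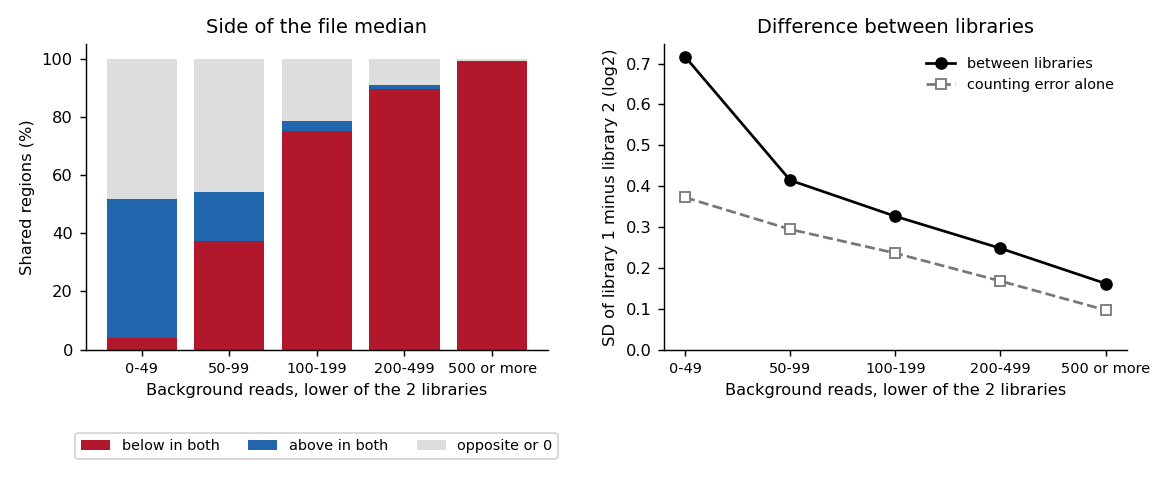
Left, the percentage of shared regions on the same side of the file median in both control libraries, and right, the SD of the difference in centred log2 ratio between the libraries (filled) beside that from counting error alone (open), by the lower of the 2 background read counts. Regions above the median in both go from 47.8% to 0%, and the SD goes from 0.72 to 0.16.

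**Figure D3:**
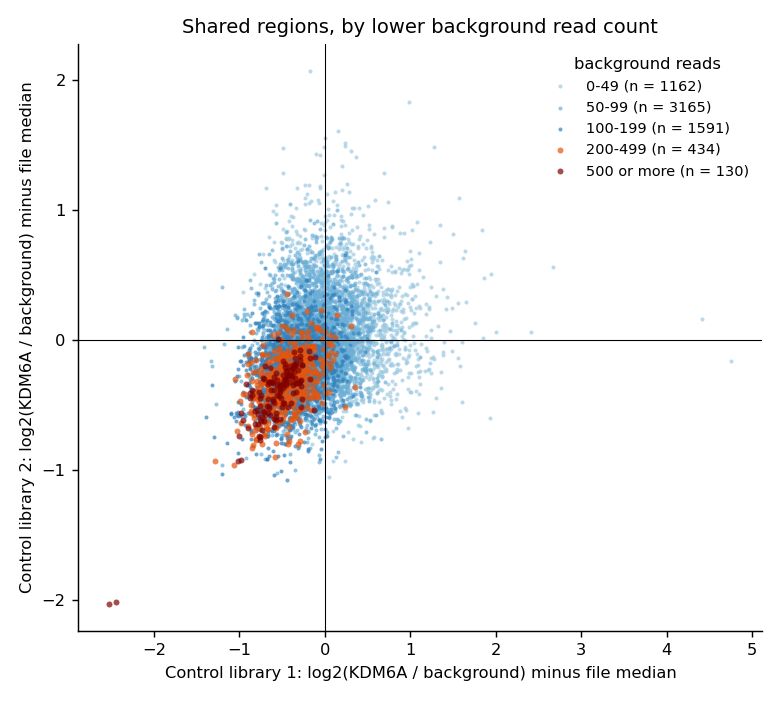
Centred log2 ratio of each of the 6482 shared regions in control library 1 (x axis) and control library 2 (y axis), coloured by the lower background read count, with lines at the file medians. The deepest regions lie in the lower left quadrant, and 2 mitochondrial regions stand apart at -2.52 and -2.44 in library 1.

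A test of KDM6A against background reads within each library placed far more shared regions below the file median than above it. By edgeR's quasi-likelihood test with library as a block and Benjamini-Hochberg adjustment over all 6482 regions, 9 regions (0.139%) were above the file median and 482 (7.44%) below it at an adjusted p under 0.05. The result turned on the zero point. With the depth constant of the deposited fold in place of the file median, which raises every log2 ratio by 0.69 in library 1 and 0.47 in library 2, 2438 regions (37.6%) were above background and 11 (0.17%) below it, so that the calls above made up 99.6% of all calls in place of 1.83%. Without the block the same test called 0 and 0, with 65 regions under an unadjusted p of 0.05, against 1290 with it. DESeq2 called 0 above and 115 below, and limma 1 and 2. The fit has 1 residual degree of freedom per region, and the intervals were called from the same KDM6A reads, so a call ranks a region within the lists and does not compare it with the rest of the genome.

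The 482 regions below the file median were wide and deep. Their median width was 9000 bp and their median lower background count 228, against 5800 bp and 76 in regions that passed in neither direction. Chromosome 11 held 51.7% of them, against 32.9% of all shared regions, and IgG intervals overlapped 81.1%, against 44.8% of all. The 9 regions above the file median were shallow, with a median lower background count of 19, and none lay on chromosome 11. Of the 9, 7 lay outside genes and 2 inside one, where 42.4% and 54.5% of all shared regions lay. IgG overlapped 3 of the 9, beside the 44.8% of all, and little can be read from so few regions.

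The 9 regions above the file median by the test had from 46 to 302 KDM6A reads in a library. Inside Cr1l, which encodes a regulator of complement, the region chr1:195118001-195128800 had 193 KDM6A against 104 background reads in library 1 and 302 against 157 in library 2. Its centred ratios of 0.60 and 0.53 were close, and its mean was 0.56 ± 0.05 (SD, n = 2; edgeR, adjusted p = 0.029). Inside Kcnt2, a sodium-activated potassium channel gene, chr1:140584401-140590600 had 117 against 50 and 110 against 46 reads, with a mean of 0.87 ± 0.07 (SD, n = 2; edgeR, adjusted p = 0.035). Both regions overlapped an IgG interval. The region nearest Iftap had the highest mean of the 9, with 64 against 21 and 70 against 18 reads and a centred ratio of 1.38 ± 0.15 (SD, n = 2; edgeR, adjusted p = 0.048), but it lay 1600579 bp from that gene. Near Gm37797, a predicted gene, the mean was 1.33 ± 0.33 (SD, n = 2), near Slitrk1, which encodes a neuronal membrane protein, 1.12 ± 0.33, and near Pla2g4a, the gene of a cytosolic phospholipase, 1.00 ± 0.34. The other 3 differed more between the libraries. Near Angpt1, which encodes a ligand of the TEK receptor of blood vessels, the ratios were 1.64 and 0.69. Near Krtap8-1, a hair keratin-associated gene, they were 0.36 and 1.41. Next to Calcrl, a receptor gene for peptides of the calcitonin family, 426 bp from the gene, they were 1.66 and 0.29. All 9 were above the median in both libraries.

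Among regions with at least 20 background reads in each library, the 10 with the highest ratio in the library where it was lower lay mostly far from genes. Kcnt2 led, and Stau2, which encodes an RNA-binding protein of RNA transport, was the only other gene with such a region inside it, at chr1:16291601-16294800, with ratios of 0.99 and 0.69. The other 8 lay 49554 to 1298656 bp from the nearest protein-coding gene. These genes were A530021J07Rik, Tmx3, Hace1, Pla2g4a, Trim52, Mei4, Zswim6 and Tle1. Near Tmx3, a gene of an endoplasmic reticulum disulfide isomerase, the region had 104 against 49 and 82 against 33 reads, for centred ratios of 0.78 and 0.88. Near Hace1, the gene of a ubiquitin ligase, it had 106 against 50 and 89 against 36 reads, for 0.78 and 0.87. Near Tle1, a Groucho family corepressor gene, the ratios were further apart, at 0.69 and 1.28. The mean of the 10 ran from 0.75 near Zswim6 to 1.00 near Pla2g4a. Of the 10, Kcnt2 and Pla2g4a passed the test against the file median, and adjusted p-values of the other 8 ran from 0.064 near Tle1 to 0.24 near A530021J07Rik (edgeR, quasi-likelihood test). With the depth constant as zero, all 10 passed, with log2 ratios of 1.34 to 1.60.

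The lowest ratios were on the mitochondrial genome, which is not packed in nucleosomes. At MT:1-6600 library 1 had 3736 KDM6A against 16614 background reads and library 2 had 586 against 1781, for centred ratios of -2.44 and -2.01. At MT:10801-16200 the counts were 2884 against 13549 and 463 against 1424, for -2.52 and -2.03. These 2 were the only shared regions on that genome, and both overlapped IgG. The regions were ordered by the ratio in the library where it was higher, among those with at least 20 background reads in each. The next 4 in that order had mean ratios of -1.12 ± 0.12 near Zfp640, a zinc finger gene, -1.01 ± 0.07 near H2-Q6, a class I histocompatibility gene, -1.08 ± 0.17 near Gm1979, a predicted gene, and -0.98 ± 0.07 near Ly6c2, the gene of a surface antigen of myeloid cells (all SD, n = 2). The libraries stood close together at each. All 6 were below the file median by edgeR's test, with adjusted p-values up to 0.0060. All but the Gm1979 region were also among the 11 below background with the depth constant as zero. The others of those 11 lay at Aida and Glo1, 3187 bp from Grm4, and on unplaced contigs, of which JH584304 held 2 and GL456368 held 1.

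The widest overlaps and the deepest regions had ratios below the file median in both libraries. The widest overlap, 84200 bp, lay near Prl2c2, a prolactin family gene, at chr13:12856601-12942800, with 5196 against 5519 reads in library 1 and 6819 against 6500 in library 2 (centred ratios -0.38 and -0.34). The next lay at Sema5b, a semaphorin gene, with 67200 bp over 15 intervals and ratios of -0.77 and -0.51, and at Btbd9, with 61600 bp and ratios of -0.74 and -0.59. Dnah8, an axonemal dynein gene, had -0.79 and -0.54, and Gm51425, a predicted gene, had -0.52 and -0.34. Tanc2, a synaptic scaffold gene on chromosome 11, had -0.19 and -0.08 and did not pass the test (edgeR, adjusted p = 0.56), while the other 5 did. The most background reads were at chr2:98666201-98669200, 1034529 bp from Lrrc4c, with 55350 against 55378 reads in library 1 and 101142 against 94298 in library 2. Its ratios were -0.29 and -0.31. A neighbouring region, one near Rab10, one inside Sfi1, the Prl2c2 region and one on contig JH584304 completed the 6 deepest, with mean ratios from -0.68 to -0.26. Every one of the widest and deepest regions overlapped an IgG interval.

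**Figure D4:**
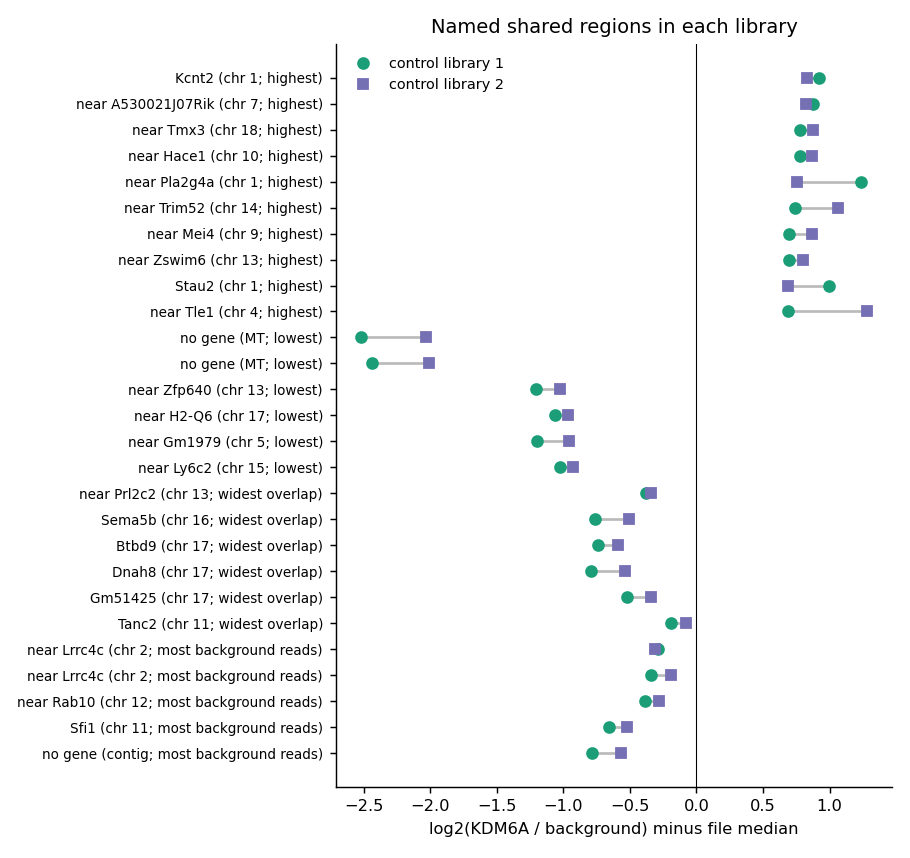
Centred log2 ratio (x axis) of the named shared regions in control library 1 (circles) and control library 2 (squares), with a line joining the 2 libraries of a region and a vertical line at the file median. The highest regions lie at 0.69 to 1.28 in both libraries, and the 2 mitochondrial regions lie lowest, at -2.52 to -2.01.

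Chromosome 11 held 2134 of the 6482 regions (32.9%). Its intervals were shared in 46.4% of cases in library 1 and 46.7% in library 2, against 12.2% and 28.4% on the other autosomes. They also had more background reads, with medians of 28.6 and 30.9 reads per kb against 22.6 and 24.0, and lower ratios, with medians of -0.24 and -0.20 against 0.03 and 0.06. Of the regions on chromosome 11, 8.43% were above the file median in both libraries, against 22.3% elsewhere. Without chromosome 11, 4348 regions were left and r of the libraries was 0.26. The X chromosome held 3 shared regions, from lists with only 20 and 7 intervals there, Y held 2 and unplaced contigs 15. What sets chromosome 11 apart was not tested.

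Most shared regions lay inside genes. By midpoint, 3531 regions (54.5%) were inside a protein-coding gene, 200 (3.09%) within 1 kb of a gene's end and 2751 (42.4%) outside genes. Of shared intervals, 55.1% in either library were inside genes, against 46.2% of unshared intervals in library 1 and 47.1% in library 2. Regions outside genes had the highest ratios, with medians of -0.11 and -0.05 and 24.0% above the file median in both libraries, against 13.4% inside genes and 9% at gene ends. Long genes gathered the most regions. The 1918 genes with a region midpoint had a median length of 80.2 kb, against 17.2 kb over all 21887 protein-coding genes. A midpoint falls more easily in a long gene, so this difference is partly set by construction. Tenm2, a teneurin adhesion gene of 1230 kb on chromosome 11, had 21 regions, and Ssh2, a cofilin phosphatase gene of 244 kb on chromosome 11, had 20. Per length Cobl, an actin nucleator gene, was densest of the 8 genes with the most, with 19 regions at 83.2 per Mb. Of these 8 genes, Stag1, a cohesin subunit gene on chromosome 9 with 17 regions, was the only one off chromosome 11. IgG overlapped 18 of the 20 regions in Ssh2, 18 of the 19 in Cobl and 11 of the 21 in Tenm2.

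Few genes had intervals of both libraries at the same end. Of 21887 protein-coding genes, 4412 (20.2%) had an interval within 1 kb of a gene end in library 1 and 1691 (7.73%) in library 2. Both libraries lay at the same end of 552 genes (2.52%), with intervals that overlapped in 499. The RefSeq gene table gives no strand, so an end may be a gene's start or its finish. Where a library had several intervals at an end, or on a promoter window, the interval with the highest ratio was taken. Where both ends of a gene qualified, the end with the higher value of the lower ratio was used. The ratios of genes are therefore the upper choice among their intervals. Of the 552 genes, 336 had ratios below the file median in both libraries and 53 had ratios above it in both (0.242% of all genes). IgG intervals overlapped at 273 of the 552, and 217 lay on chromosome 11. Medians over the 552 were -0.32 in library 1 and -0.20 in library 2.

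Genes with both libraries at the same end were ordered by the lower of their 2 ratios, and 7 of the first 10 without predicted symbols were chemoreceptor genes. Atoh8, which encodes a basic helix-loop-helix transcription factor, came first, with 52 KDM6A against 21 background reads in library 1 and 97 against 41 in library 2. Its centred ratios were 0.98 and 0.81, but its 2 intervals did not overlap. Olfr807 followed with 76 against 40 and 216 against 117 reads (0.62 and 0.47), and Olfr493 with 60 against 32 and 120 against 67 (0.60 and 0.42). Vmn1r65, a vomeronasal receptor gene, was higher in library 1 than in library 2, with 57 against 19 and 96 against 54 reads (1.25 and 0.41). Amtn, which encodes an enamel matrix protein, had 0.40 and 0.57, and Calcrl had 0.69 and 0.29. The intervals of the 2 libraries did not overlap at Olfr493, Amtn or Calcrl either. Olfr965, Olfr987, Olfr608 and Olfr710 completed the 10, with mean ratios of 0.27 ± 0.03 at Olfr710 to 0.41 ± 0.20 at Olfr987 (SD, n = 2). All 10 had a deposited adjusted p under 0.05 in both libraries, as most intervals of the lists did. Reads of such receptor families can map to several copies, so these values are uncertain, and IgG intervals overlapped at Olfr807, Amtn, Calcrl and Olfr987.

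Olfactory receptor genes made up 70 of the 552 genes, and they were 21 of the 53 with both ratios above the file median. A further 19 of the 70 were below it in both libraries. The 70 are 6.33% of 1106 olfactory receptor genes, against 2.52% of all genes. They had an interval at a gene end in 21.8% of cases in library 1 and 17.2% in library 2, beside 20.2% and 7.73% of all genes. Medians over the 70 were 0.02 and 0.00. Of 394 Zfp genes, which encode zinc finger proteins, 28 (7.11%) had a shared end. Of these 28, 0 were above the file median in both libraries and 19 below it, with medians of -0.46 and -0.33. Over all 552 genes 9.60% were above it in both and 60.9% below it, with medians of -0.32 and -0.20. Zfp456 and Zfp953 are neighbours that share the same intervals, with 97 against 79 and 114 against 89 reads (0.00 and -0.06). Zfp667 had 0.06 and -0.09, from intervals that did not overlap, and Zfp616 had -0.27 and 0.20. Vomeronasal receptor genes were at 13 of 353 (3.68%), of which 4 were above the median in both libraries and 6 below it in both. The 4 above were led by Vmn1r65 and also held Vmn2r76 (0.51 and 0.09), Vmn2r14 (0.65 and 0.05) and Vmn1r51 (0.80 and 0.02). No test of these lists was made, and neighbouring receptor genes can share an interval.

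Kdm6a and Uty had no interval anywhere in the gene, on chromosomes with few intervals. Kdm6b, which encodes a related demethylase, had 1 interval inside the gene in library 1, with 151 against 158 reads and a ratio of -0.35, and 0 in library 2. Of 12 genes of the KMT2C and KMT2D complexes and their demethylases, 2 (16.7%) had a gene-end interval in library 1 and 1 (8.33%) in library 2, beside 20.2% and 7.73% of all protein-coding genes. The gene in both was Ncoa6, a coactivator subunit of these complexes, with 94 against 86 and 114 against 72 reads and ratios of -0.16 and 0.24, on opposite sides of the median. Kmt2d, which encodes a catalytic subunit, had one in library 1 alone, with 57 against 38 reads and a ratio of 0.28. Of 12 genes of Polycomb repressive complex 2, 5 (41.7%) had one in library 1 and 2 (16.7%) in library 2. In each of these lists 1 gene (8.33%) had both at the same end, beside 2.52% of all genes, and from 12 genes nothing is read into that share. Suz12, a core subunit on chromosome 11, had both at the same end without overlap, with ratios of -0.20 and -0.32. At its other end the intervals overlapped, with 296 against 363 and 279 against 196 reads and ratios of -0.58 and 0.10, on opposite sides of the median. IgG intervals overlapped the Kdm6b interval and those of Suz12 at both ends, and not those of Ncoa6 or Kmt2d.

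In the lists of pluripotency, Hox and ribosomal protein genes, more members had a gene-end interval in library 1 than in library 2, as did all protein-coding genes (20.2% and 7.73%). Of 30 pluripotency genes, 14 (46.7%) had a gene-end interval in library 1 and 3 (10.0%) in library 2, and 2 had both at the same end. Zfp281, a zinc finger regulator of pluripotent cells, had 248 against 275 reads in library 1 and 215 against 140 in library 2, with ratios of -0.44 and 0.20. Tfcp2l1, a transcription factor of the naive state, had 119 against 156 and 117 against 121 reads, with ratios of -0.68 and -0.46 and a deposited fold near 1 in both. Nanog, a core factor, had 83 against 108 reads (-0.67) and Sox2 had 196 against 188 (-0.23) in library 1 alone. Nr5a2, a nuclear receptor gene, had the highest ratio of the list, 0.92 in library 1, from 43 against 18 reads. IgG intervals overlapped the intervals of Tfcp2l1, Nanog, Sox2 and Nr5a2, and that of Zfp281 in library 1 but not in library 2. Of other members of this list, the intervals of Klf4, Zfp42, Il6st, Sall4, Dppa5a and Lifr did not overlap IgG. Of 39 Hox genes, which pattern the body axis, 7 (17.9%) had one in library 1, 1 (2.56%) in library 2 and 0 in both at the same end. Of 84 ribosomal protein genes, 24 (28.6%) had one in library 1, 3 (3.57%) in library 2 and 2 in both at the same end. Rps27l had ratios of 1.01 and -0.10, on opposite sides of the median. Of 20 fibroblast genes, which stand for feeder cells, each library had 1, Loxl1 in library 1 and Twist2 in library 2. Of 1005 miRNA hairpins, 69 overlapped an interval in library 1, 18 in library 2 and 4 in both, Mir804, Mir744, Mir7214 and Mir7216. Beside these counts, intervals covered 9.99% of 21263 promoter windows in library 1, 2.39% in library 2 and 0.621% in both. Nothing is read into the hairpin counts.

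The 2 libraries covered different kinds of promoter. Library 1 lay on 2124 of the 21263 promoter windows of 300 bases (9.99%) and library 2 on 508 (2.39%), against the 132 in both (0.621%). The ratio of observed to expected CpG had a median of 0.57 over all windows, 0.73 over those of library 1 alone, 0.24 over those of library 2 alone and 0.25 over those of both. Of windows with a ratio above 0.6, called CpG-rich here, library 1 covered 13.2% and library 2 covered 1.24%. Of the other windows they covered 7.02% and 3.43%, so the order was opposite in the 2 libraries. Without olfactory and vomeronasal receptor genes the medians were 0.74 for library 1 alone, 0.34 for library 2 alone and 0.51 for both, beside 0.61 over all. Of the 132 windows, 23 were of olfactory and 7 of vomeronasal receptor genes.

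CpG-rich promoters had the lower KDM6A ratios in both libraries. Of the 41 CpG-rich windows in both lists, 0 were above the file median in both libraries and 32 were below it in both, with medians of -0.47 and -0.48. Of the other 91, 12 were above and 55 below, with medians of -0.25 and -0.17. Over the covered windows Pearson's r of GC content with the centred ratio was -0.25 in library 1 (n = 2124) and -0.32 in library 2 (n = 508), across windows that share a library and, in part, an interval. Over the 132 windows of both it was -0.49 and -0.35. Background reads per kb were also higher at CpG-rich windows, with medians of 30.0 against 26.5 in library 1 and 29.5 against 26.6 in library 2, and their part in the ratio was not tested.

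**Figure D5:**
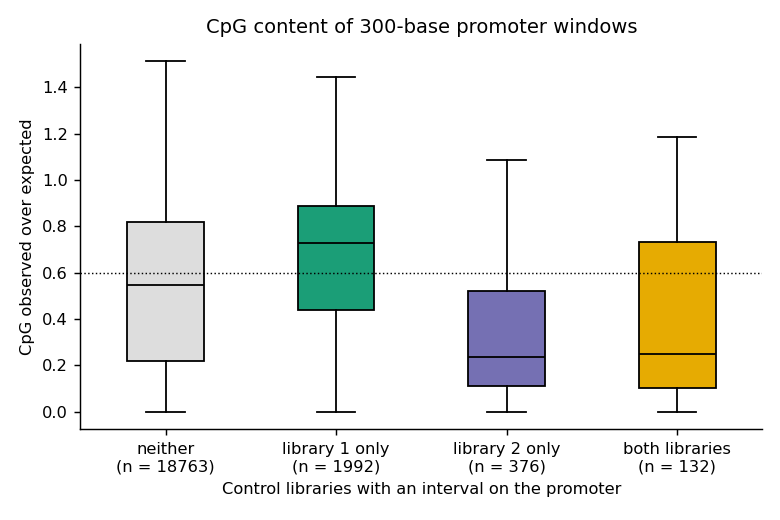
Observed over expected CpG (y axis) of 300-base promoter windows by the control libraries that have an interval there. Boxes give the quartiles and the median, whiskers reach the most extreme window within 1.5 times the box height, and the dotted line marks 0.6. The median is 0.73 for library 1 alone, 0.24 for library 2 alone and 0.25 for both.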

How the data were processed

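The submitters' processing notes name Bowtie2 and mm10, without a version. Libraries were amplified over 30 PCR cycles, per the labels' protocols. The interval caller was not given in the sources used here. The deposited lists have 8 columns and no header, and intervals were called per library, since each list has its own positions. The deposited counts are whole KDM6A and background reads per interval, not normalized. The deposited fold is the ratio of these counts times 1 constant per list (1.32 and 1.04). The deposited p-values and adjusted p-values per interval are the authors', and lists were not filtered on them. The labels do not tie the background column to an input sample, and lists for the 2 control inputs were not analysed here.

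Overlapping intervals were joined into regions, and reads were summed per region over each library's own intervals, so the 2 libraries need not cover the same bases. Region counts entered the quasi-likelihood test of edgeR 4.0.16 (R 4.3.3; no filter, adjusted p under 0.05), with offsets that put the file median at 0 and the replicate number as a block. The script was tested on simulated data. The number pairs KDM6A and background reads because each list counts both over the same intervals, and their deviations over the 6482 regions correlated at 0.86. The covered bases differ between the libraries and move both counts together, so this correlation is partly built in and is no support for the block. DESeq2 1.42.0, limma 3.58.1 and other zero points, filters, windows and overlap rules were alternatives. Genes, promoters and miRNA hairpins came from RefSeq tables of GRCm38.p6, the assembly of mm10, and 17492 of 21887 protein-coding genes had a promoter entry. The rule for named regions took the 10 highest, the 6 lowest (both with at least 20 background reads), the 6 widest overlaps, the 10 highest genes at a shared end without predicted symbols, up to 4 members of each of 9 gene lists, and Kdm6a, Kdm6b and Uty. Regions past the edgeR threshold, the 6 deepest, the genes with the most regions and the promoters with sequence were named after their values were seen. A list member that the rule takes in is not reported here. The members and lists were chosen with earlier results of these data known.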

Additional observations from a re-analysis of the deposited data

How the results depend on the processing

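The 6482 shared regions became 2733 when both intervals had to overlap by 50%, 3994 with only intervals of a deposited adjusted p under 0.05, 2525 with lists of equal length and 3665 without intervals that overlap IgG. They stayed within 1.5 times under 3 other rules (4348 to 6406). Pearson's r between libraries was 0.16 with only intervals of an adjusted p under 0.05 and 0.26 to 0.40 under the other 6 alternatives. The median width of single libraries' shared intervals was 3200 to 4200 bp. The 552 genes became 926 with windows of 2.5 kb, 3800 with whole genes, 265 with an adjusted p under 0.05, 283 without IgG intervals, 140 with lists of equal length and 129 with promoter windows, which were chosen after seeing the data. Single libraries had 1691 to 4412 genes.

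Regions above and below the file median were 9 and 482. They were 0 and 0 with no replicate block, 18 and 203 with the median over shared regions as zero, 19 and 205 with TMM, 3 and 178 without chromosome 11, 0 and 115 with DESeq2 (its adjusted p was NA in 5278 regions) and 1 and 2 with limma. With the depth ratio of the deposited fold they were 2438 and 11. Without MT, contigs and regions of 500 or more reads in both libraries, a choice made after seeing the data, 5 and 357 passed. Single libraries allow no test: 2170 to 2517 regions had a ratio above 0 and 3964 to 4305 below it. With the depth ratio as zero, the mean ratio of the Prl2c2 region turned to 0.22 and that of the Gm51425 region to 0.15. Regions that had not passed the main test also turned from below 0 to above it. These were Tanc2 (0.45), the 2 regions near Lrrc4c (0.28 and 0.32) and the region near Rab10 (0.25). Besides the Prl2c2 and Gm51425 regions, 44 of the 50 named values moved by more than the spread between libraries under that zero. With a pseudocount of 5, 2 values did so, and with 0.5, 0 did.

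Depth limits what a single region shows: below 50 background reads the libraries differed by an SD of 0.72. With 2 libraries, an adjusted p rests on 1 residual degree of freedom per region and on the spread shared over regions.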
